A study of Bos taurus with 3 samples.

Results

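The genes described here are 89 genes whose symbols match families of transcription factors with known roles in tissue identity or hormone response, of the 9154 genes listed for at least 1 library (0.972%). They were chosen by symbol alone: nuclear receptors, the ETS, KLF, SOX, FOX, HOX, GATA, NFI, C/EBP and TBX families, AP-1 genes with ATF3 and EGR genes, MYC, and the ID, HES and ASCL genes. FOXM1, a mitotic factor, was left out. The symbol pattern itself uses no measured value, but it was set with earlier results of these data known. It also holds RUNX, which only RUNX1T1 matched. Of these 89 genes, 80 belonged to a named family, while 9 matched only by the letters of their symbol and are described last.

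Digital gene expression (DGE) counts short sequence tags, each cut next to an NlaIII site of a polyadenylated transcript. Mammary tissue of 18 Holstein cows, all in the second parity, was compared at 3 time points: 35 days before parturition (−35 d, the dry period), 7 days before parturition (−7 d) and 3 days after it (+3 d). The tissue of 6 cows was pooled at each time point before RNA isolation, and each pool gave 1 library. Stage I of lactogenesis was read from −7 d against −35 d and stage II from +3 d against −7 d, so that both comparisons used the same −7 d library, and +3 d was also compared with −35 d.

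In the mammary gland, oestrogen, progesterone, prolactin, glucocorticoids and thyroid hormone act through transcription factors. Steroid and thyroid hormones bind nuclear receptors directly, while prolactin works through JAK2 and STAT5 and raises factors such as ELF5, which is needed for secretory alveoli to form. GATA3, the NFI factors and the C/EBP factors act with these pathways in luminal cells. Several AP-1, EGR and KLF genes answer within minutes to growth factors and stress in most cell types.

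Depth was alike in the pools: 5914422 clean tags for −35 d, 5593237 for −7 d, 5845821 for +3 d. Tags on the 89 genes numbered 13722, 10674 and 9971, with a median of 51, 38 and 48 tags per listed gene, and 76 of the 89 were listed in every library. Values are in TPM, the tags of a gene per 1000000 clean tags. A count of 0 allows up to 3 tags, which is 0.507 TPM at −35 d, 0.536 TPM at −7 d and 0.513 TPM at +3 d. Luminal epithelial markers, such as the keratin gene KRT8 and EPCAM, were present in every library for 9 of the 12 genes of that list. ESR1, NR3C1, FOXA1, CEBPB, RXRA, THRB, SOX9, SOX10 and RUNX1 were not analysed here.

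Pairs of libraries were compared by the Audic-Claverie test, which asks whether 2 tag counts differ by more than counting error. A difference was called at a false discovery rate (FDR) of at most 0.001 over all genes and a change of at least 2-fold. With 1 library per time point there were no replicates, so the test compares libraries and not conditions. The intervals given for ratios are 95% exact binomial intervals, and those of levels are 95% exact Poisson intervals. They cover counting error only, because the spread among cows did not enter and PCR copies of a tag are not separate molecules. In pooled tissue, fewer cells of a type and less RNA per cell cannot be told apart.

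Scaling also bears on every ratio. At +3 d, 5 milk protein genes held 22.6% of the clean tags, compared with 4.13% at −7 d and 0.348% at −35 d. TMM scaling, which centres most genes near 0, raised the log2 ratios by 0.19 in stage I, 0.31 in stage II and 0.50 for +3 d against −35 d. Ratios given without further words are scaled to the total of clean tags, and the TMM value is given beside many of those that lose or gain a call or change sign with it.

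In stage I, 5 of the 88 tested members were called higher at −7 d (ASCL2, HES6, KLF15, NFIX and NR2C2AP) and 9 were called lower (ELF3, ETS2, FOXP1, JUNB, JUND, KLF4, KLF6, NR1H3 and RARG). These were 5.68% and 10.2% of the members, compared with 2.62% and 6.45% of all genes tested. With TMM scaling the same 5 genes were called higher and 6 lower, compared with 4.22% and 3.9% of all genes. JUND, KLF4 and RARG were the 3 no longer called. The median log2 ratio of the members was −0.61, with 66 of 88 below 0, while that of all genes was −0.21 (−0.42 and −0.02 with TMM scaling).

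In stage II, 5 of the 86 tested genes were called higher at +3 d (ATF3, JUNB, KLF4, KLF6 and NR1D1) and 5 lower (ASCL2, ELF5, ETV6, HES6 and MYC). Each direction held 5.81% of the members, compared with 3.12% of all genes called higher and 10.4% called lower. TMM scaling moved this split to 13 higher and 2 lower, compared with 5.87% and 4.9% of all genes. The 13 were ATF3, ELF3, ETS2, FOXO4, HOXA5, JUNB, JUND, KLF4, KLF6, NR1D1, NR1H3, NR2F1 and PPARG, and the 2 were ASCL2 and MYC. The median log2 ratio of the members was 0.11 and that of all genes −0.30 (0.42 and 0.01 with TMM scaling).

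At +3 d against −35 d, NR2C2AP and PPARG were called higher and 10 genes lower (EGR1, ETV6, FOXA3, FOXP1, FOXRED1, HES1, ID1, KLF5, MYC and SOX4). The shares were 2.27% and 11.4% of the 88 members tested, close to or under the 2.33% and 16.3% of all genes. With TMM scaling 6 genes were called higher (ATF3, KLF15, NR1D1, NR2C2AP, NR2F1 and PPARG) and 3 lower (FOXA3, KLF5 and MYC), compared with 6.23% and 4.94% of all genes. The median log2 ratio of the members, −0.47, lay near that of all genes, −0.54 (0.03 and −0.05 with TMM scaling). In all, 27 of the 89 genes were called in at least 1 comparison and 62 in none; 19 of the 27 were also called with TMM scaling. The edgeR exact test with an assumed spread between libraries (a coefficient of variation of 0.2 or 0.4) called 0 of them in any comparison. Of all genes it called at most 1.13% in any comparison and direction with 0.2, and at most 0.14% with 0.4. At an unadjusted p under 0.05 it gave 23, 14 and 20 members for 0.2 and 4 each for 0.4, of 88, 86 and 88 tested. These counts stand without the share of all genes at that p, which was not computed. Each library pooled 6 cows, so the assumed value is not the spread among single animals.

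**Figure D1:**
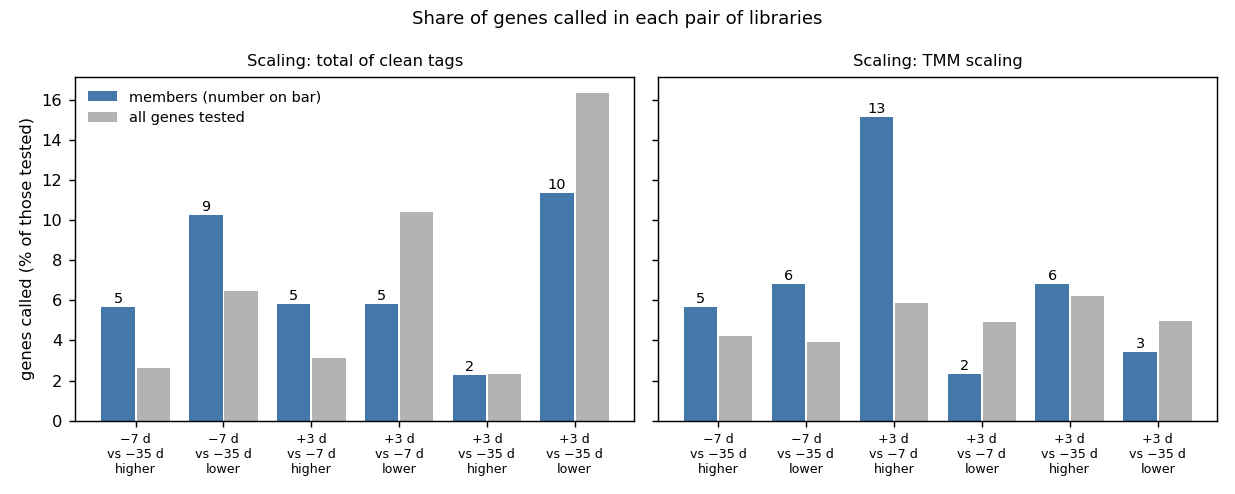
Share of the members (blue, with the number called on each bar) and of all genes tested (grey) that were called higher or lower in each pair of libraries; the vertical axis is the percentage of genes tested, the left panel uses the total of clean tags and the right panel TMM scaling. The bar for genes higher at +3 d than at −7 d stands at 5 members on the left and at 13 on the right.

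The −7 d library held the lowest level for 40 of the 89 genes (44.9%), while 24.7% of all genes were lowest there. For +3 d the order was the other way round, with 32 members (36.0%) and 51.9% of all genes. With TMM scaling, 49 members (55.1%) and 30.0% of all genes were lowest at −7 d. The −35 d library held the highest level for 53 members (59.6%) and for 52.0% of all genes. With TMM scaling this became 35 members (39.3%) and 34.5% of all genes, and more members, 38 (42.7%), were then highest at +3 d. With clean-tag scaling, markers of several cell types also differed among the libraries. Of the fibroblast and matrix markers, 8 of 9 listed were lowest at −7 d, with a summed level of 9003 TPM at −35 d, 6398 TPM at −7 d and 9883 TPM at +3 d. Among macrophage markers this held for 10 of 12 entries, with 1023, 584 and 867 TPM. MSR1 had more than 1 of these entries, of which 1 had 2, 0 and 6 tags. Endothelial markers were lowest at −7 d in 6 of 9 cases, with 156, 124 and 202 TPM, and adipocyte markers in 4 of 8, with 326, 217 and 456 TPM. The same held for 5 of 9 luminal epithelial markers and 6 of 10 myoepithelial and smooth muscle markers. T and NK cell markers were lowest there in 5 of 12 cases, and their sum was lowest at +3 d (263, 168 and 156 TPM). Markers of proliferating cells were lowest there in 0 of 11 cases. The part of these cells in the levels of the members was not tested.

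**Figure D2:**
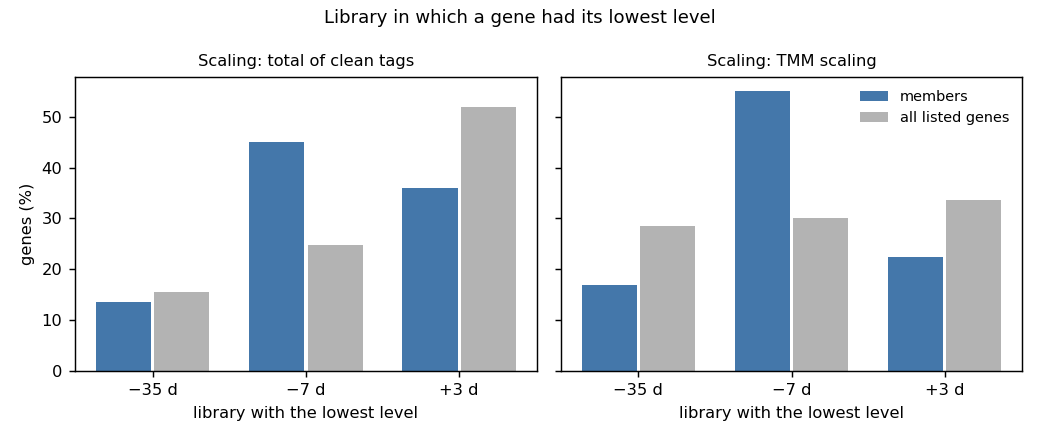
Share of the 89 members (blue) and of all 9154 genes (grey) that had their lowest level in each of the 3 libraries, in percent of genes, with the total of clean tags on the left and TMM scaling on the right. The members' bar at −7 d stands at 44.9% and 55.1%, above the bars of all genes at 24.7% and 30.0%.

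Among the nuclear receptors, 18 genes were listed, with a summed level of 279 TPM at −35 d, 214 TPM at −7 d and 236 TPM at +3 d. PPARG, the receptor that drives fat cell formation and many lipid genes, had 17, 24 and 57 tags, or 2.87, 4.29 and 9.75 TPM. It was highest at +3 d. Its level there was 3.39-fold higher than at −35 d (95% interval 1.95 to 6.22, Audic-Claverie FDR 7.13e-06), and the log2 ratio of 1.18 in stage II was called only with TMM scaling (1.49). In stage II, where 3.12% of all genes were called higher, 2 of the 8 listed adipocyte markers were called. These were CFD and FABP4, with log2 ratios of 1.83 and 1.42. Of the others, ADIPOQ, CIDEC and LEP had log2 ratios of −0.82, −0.76 and −0.48, and PNPLA2, PLIN1 and RETN had 0.35, 0.51 and 0.94. The part of fat cells in the PPARG level was not tested. PPARD, a more widely expressed receptor of fatty acids, had the reverse order, with 21.3 TPM at −35 d, 12.3 TPM at −7 d and 12.1 TPM at +3 d and log2 ratios of −0.79 in stage I and −0.81 at +3 d against −35 d, neither of which reached 2-fold. PPARA, the receptor of fatty acid oxidation, had 11, 7 and 12 tags, and the intervals of all its ratios included 0.

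NR1H3 and NR1H2 encode the oxysterol receptors LXR alpha and LXR beta. NR1H3 had 12.7 TPM at −35 d, 4.83 TPM at −7 d and 10.1 TPM at +3 d. Its stage I fall of 2.63-fold was called (95% interval 1.67 to 4.24, Audic-Claverie FDR 3.51e-05), and its stage II log2 ratio of 1.06 missed the FDR threshold (Audic-Claverie FDR 0.00351) but was called with TMM scaling (1.37). NR1H2 stayed within a narrow range of 51.4, 44.7 and 48.4 TPM, and its log2 ratio in stage I was −0.20 (95% interval −0.45 to 0.04).

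Receptors of retinoids and thyroid hormone followed. RARG, retinoic acid receptor gamma, had 41.8 TPM at −35 d, 19.5 TPM at −7 d and 25.7 TPM at +3 d. It fell by 1.10 on the log2 scale in stage I (−0.91 with TMM scaling, not called). THRA, thyroid hormone receptor alpha, had 41.1 and 39.5 TPM before parturition and 25.1 TPM at +3 d, a log2 ratio of −0.65 in stage II that did not reach 2-fold (−0.34 with TMM scaling). NR1D1 encodes REV-ERB alpha, a repressor of the circadian clock. Its levels were 15.7 TPM at −35 d, 13.4 TPM at −7 d and 27.5 TPM at +3 d, with a called rise of 2.05-fold in stage II (95% interval 1.55 to 2.74, Audic-Claverie FDR 6.39e-07). NR1D1 and THRA overlap in the RefSeq annotation of ARS-UCD2.0, and whether tags of the shared stretch entered either count was not tested. RXRB and RXRG, partners of many receptors, had at most 7 tags in any library.

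Of the steroid hormone receptors, 2 were listed. PGR, the progesterone receptor, had 10, 7 and 6 tags, or 1.69, 1.25 and 1.03 TPM, and its log2 ratio of −0.72 at +3 d against −35 d had an interval from −2.46 to 0.88. A fall in PGR was therefore not detectable at this depth. NR3C2, the mineralocorticoid receptor, had 10.7 TPM at −35 d, 13.6 TPM at −7 d and 7.18 TPM at +3 d, with a stage II log2 ratio of −0.92 that was not called (Audic-Claverie FDR 0.00242).

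The other receptors are orphans, without an established hormone. NR2F1 had 18.6, 14.3 and 26.3 TPM, and its log2 ratios of 0.88 in stage II and 0.50 at +3 d against −35 d were called only with TMM scaling, with 1.19 in stage II. Its close relative NR2F2 had 39.1, 31.8 and 29.9 TPM and was called in no comparison. NR4A1, NR4A2 and NR4A3, which growth factors and stress induce within minutes, summed to 14.2, 8.05 and 7.87 TPM, and none was called. NR4A1 made up most of this difference, with 39 tags at −35 d and 14 and 15 tags afterwards. NR4A3 had 4, 0 and 3 tags. NR2C1 had 26, 21 and 14 tags with no called difference.

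**Figure D3:**
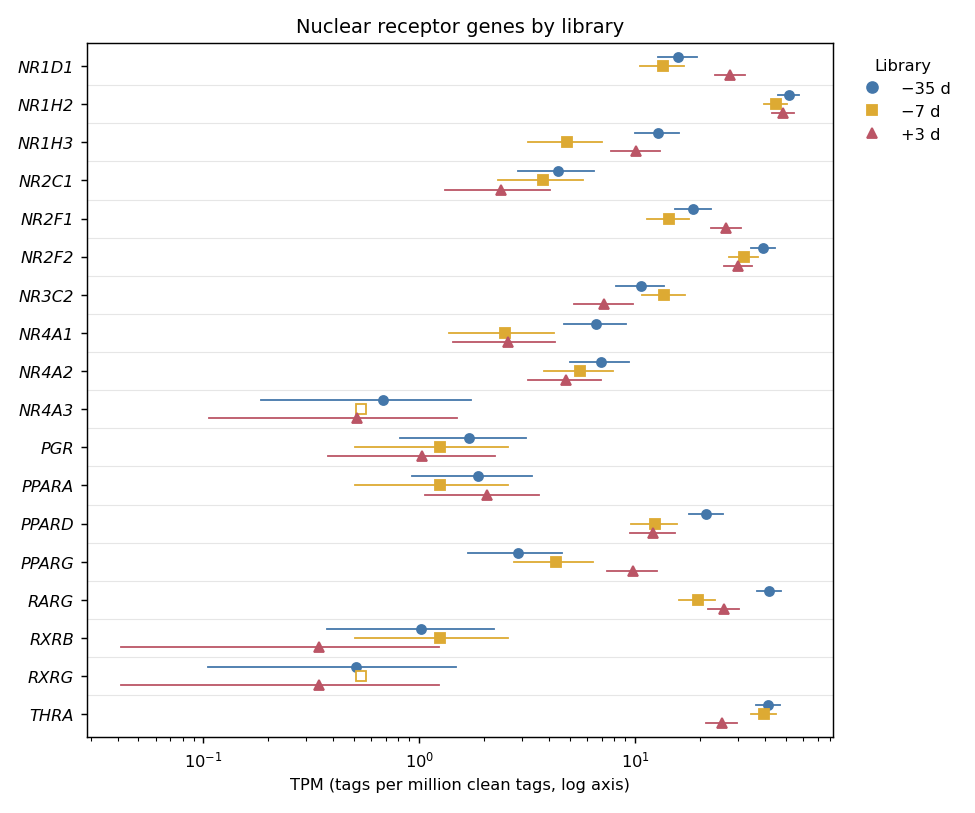
Levels of the 18 nuclear receptor genes in each library, in TPM on a log axis. Bars are 95% exact Poisson intervals for counting error, and open markers stand at the level that a count of 0 allows (3 tags). PPARG and NR1D1 are highest at +3 d, NR1H3 and RARG are lowest at −7 d, and the intervals of PGR, RXRB and RXRG overlap in all libraries.

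Among the 9 ETS genes, the summed level was 575 TPM at −35 d, 590 TPM at −7 d and 346 TPM at +3 d, and ELF5 held the most tags. ELF5 had 1604, 1974 and 907 tags in the order of the time points, or 271, 353 and 155 TPM. It was highest at −7 d and lowest at +3 d. The stage I log2 ratio of 0.38 (95% interval 0.28 to 0.48) was under 2-fold. In stage II ELF5 fell by 1.19 on the log2 scale (95% interval −1.30 to −1.07, Audic-Claverie FDR 1.28e-98), and with TMM scaling the log2 ratio was −0.88 and was not called. At +3 d against −35 d it was −0.81, or −0.31 with TMM scaling.

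ELF3 and EHF are epithelial ETS factors related to ELF5. ELF3 had 42.6 TPM at −35 d, 12.9 TPM at −7 d and 25.5 TPM at +3 d, and fell 3.31-fold in stage I (95% interval 2.54 to 4.36, Audic-Claverie FDR 3.67e-21). Its lowest level was at −7 d, where ELF5 was highest. The stage II log2 ratio of ELF3 was 0.99, called only with TMM scaling (1.29). EHF had 24.7, 21.8 and 12.7 TPM, with a log2 ratio of −0.96 at +3 d against −35 d that did not reach 2-fold. The 9 listed luminal epithelial markers summed to 1544, 964 and 836 TPM. In stage I, 3 were called lower, compared with 6.45% of all genes. MUC1 and CDH1 were among them, with −1.09 and −2.16 on the log2 scale, and only CDH1 was also called with TMM scaling. MUC1 was later the only 1 called higher, by 2.16 in stage II and 1.08 at +3 d against −35 d, under both scalings. In that last comparison 4 markers were called lower, compared with 16.3% of all genes, and none of them with TMM scaling. The part of epithelial cells in these ETS levels was not tested.

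ETS2, a widely expressed factor activated by MAP kinase, had 81.0 TPM at −35 d, 30.6 TPM at −7 d and 53.5 TPM at +3 d. It fell 2.65-fold in stage I (95% interval 2.22 to 3.17, Audic-Claverie FDR 1.29e-29), and its stage II log2 ratio of 0.81 was called only with TMM scaling (1.12). ETV6, a repressor of the family, had a different order, with 78.6 TPM at −35 d, 58.5 TPM at −7 d and 28.2 TPM at +3 d. Its falls of 1.05 in stage II and 1.48 at +3 d against −35 d on the log2 scale were called, but neither was called with TMM scaling (−0.74 and −0.98). ELF1, known from lymphoid and many other cells, had 67.1, 109 and 66.7 TPM. Its log2 ratios of 0.70 and −0.71 in the 2 stages differed from 0 beyond counting error, with intervals of 0.52 to 0.89 and −0.90 to −0.53, but stayed under 2-fold. ETS1 had 17, 5 and 9 tags, ETV1 36, 17 and 16 tags, and ELF2 at most 2 tags, with none called.

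The genes of the AP-1 family, with ATF3 and EGR1, were lowest at −7 d in 6 of 7 cases. Several of their products, though not all, act early in the response of a cell to growth factors, stretch or injury. The summed level of the 7 was 269 TPM at −35 d, 146 TPM at −7 d and 220 TPM at +3 d. JUN, JUNB and JUND together had a log2 ratio of −0.98 in stage I (95% interval −1.13 to −0.83) and 0.53 in stage II (0.37 to 0.69). At +3 d against −35 d their log2 ratio was −0.45, which became 0.05 with TMM scaling.

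JUNB was called in both stages. It had 22.3 TPM at −35 d, 7.69 TPM at −7 d and 18.3 TPM at +3 d, and its log2 ratios were −1.54 (95% interval −2.07 to −1.03) and 1.25 (0.73 to 1.80). JUND had 70.3, 35.0 and 62.8 TPM, with a stage I log2 ratio of −1.01 that was called (−0.82 with TMM scaling, not called) and a stage II log2 ratio of 0.84 that was called only with TMM scaling (1.15). JUN had 96.5, 53.3 and 57.8 TPM. Its stage I log2 ratio of −0.86 did not reach 2-fold, and its level at +3 d did not differ from that at −7 d beyond counting error with clean-tag scaling (0.12, 95% interval −0.11 to 0.35), while the log2 ratio was 0.43 with TMM scaling (Audic-Claverie FDR 0.000856).

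FOS had 55.1 TPM at −35 d, 37.2 TPM at −7 d and 57.1 TPM at +3 d. The log2 ratios of −0.57 and 0.62 were under 2-fold, and at +3 d against −35 d the log2 ratio was 0.05 with clean-tag scaling (95% interval −0.17 to 0.28) and 0.55 with TMM scaling (Audic-Claverie FDR 6.21e-06), again under 2-fold. FOSB had 53, 32 and 36 tags and was not called. ATF3, a stress-induced partner of the JUN proteins, had 8.96, 3.75 and 16.4 TPM and was highest at +3 d. It rose 4.37-fold in stage II (95% interval 2.71 to 7.39, Audic-Claverie FDR 3.49e-11). EGR1, a zinc finger factor of the same early response, was lowest at +3 d and not at −7 d, with 7.10, 3.75 and 1.54 TPM. At +3 d EGR1 was 4.61-fold lower than at −35 d (95% interval 2.21 to 10.8), and this was not called with TMM scaling, where the log2 ratio was −1.71.

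Other early response genes, from a list outside the transcription factor set, were called in the same stages in part. Of 12 listed genes of 20, none was called higher and 2 lower in stage I, 3 higher and none lower in stage II, and 1 lower at +3 d against −35 d, to be read against the shares of all genes given with each comparison. CYR61, a matrix protein, had log2 ratios of −1.12 and 1.63 in the 2 stages, both called. PTGS2, a prostaglandin synthase, and MAFF, a small MAF factor, had stage II log2 ratios of 2.21 and 1.19, and the phosphatase gene DUSP1 had −1.08 at +3 d against −35 d. With TMM scaling the stage I calls of this list and that of DUSP1 were lost, while 4 genes were called higher in stage II and 4 at +3 d against −35 d.

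Among the 6 KLF genes, zinc finger factors of epithelial growth and metabolism, the members moved in different directions. KLF6 had 26.0 TPM at −35 d, 6.08 TPM at −7 d and 13.2 TPM at +3 d. It fell 4.28-fold in stage I (95% interval 2.94 to 6.41, Audic-Claverie FDR 6.80e-17) and rose 2.17-fold in stage II (1.43 to 3.35). KLF4, a factor of epithelial differentiation, had 11.2, 4.47 and 11.1 TPM. Its log2 ratios of −1.32 and 1.31 were called in stages I and II, the first not with TMM scaling (−1.13). Between −35 d and +3 d its log2 ratio was −0.01 (95% interval −0.52 to 0.51), or 0.49 with TMM scaling.

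KLF15, which glucocorticoids induce and which acts on amino acid and glucose metabolism, went the other way. Its levels were 14.0 TPM at −35 d, 29.3 TPM at −7 d and 20.9 TPM at +3 d, with a called rise of 2.09-fold in stage I (95% interval 1.59 to 2.75). KLF5, a factor of proliferating epithelium, had 28.1, 14.3 and 9.24 TPM. It was 3.04-fold lower at +3 d than at −35 d (95% interval 2.22 to 4.21), and this was called under both scalings. KLF13 had 54, 31 and 46 tags and KLF16 at most 2, and neither was called.

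MYC, a factor of growth and ribosome production, had 39.1 TPM at −35 d, 48.1 TPM at −7 d and 13.7 TPM at +3 d. The level at +3 d was below both others. MYC fell 3.51-fold in stage II (95% interval 2.73 to 4.57, Audic-Claverie FDR 9.00e-26) and 2.85-fold at +3 d against −35 d (2.20 to 3.73), and both were called under both scalings, the second not with DESeq2 size factors. Markers of proliferating cells moved in the same library. Of 11 listed genes, 10 were called lower in stage II and 7 at +3 d against −35 d (9 and 3 with TMM scaling). The shares of all genes called lower were 10.4% and 16.3% (4.9% and 4.94% with TMM scaling). The summed level of these markers was 130, 195 and 37.5 TPM, and MCM5 was at 0 at +3 d. The part of dividing cells in the MYC level was not tested.

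The bHLH regulators of cell fate included 2 genes called in both stages, higher at −7 d than in either other library. ASCL2, a target of WNT signalling known from intestinal stem cells and trophoblast, had 17, 78 and 22 tags, or 2.87, 13.9 and 3.76 TPM. It rose 4.85-fold in stage I (95% interval 2.84 to 8.75, Audic-Claverie FDR 2.12e-10) and fell 3.71-fold in stage II (2.28 to 6.25), and both were called under both scalings. HES6, which opposes the Notch target HES1, had 3, 24 and 5 tags, or 0.507, 4.29 and 0.855 TPM. Its level at −7 d was 8.46 times that at −35 d, with a wide interval of 2.57 to 43.9, and 5.02-fold above that at +3 d (1.88 to 16.8), where the call was lost with TMM scaling (a log2 ratio of −2.02 in place of −2.33).

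HES1, the main Notch target of the set, was highest at −35 d. It had 46.3, 27.9 and 22.4 TPM and was 2.07-fold lower at +3 d than at −35 d (95% interval 1.67 to 2.57), a call that was lost with TMM scaling (−0.55 on the log2 scale). HES5, another Notch target, was listed only at −7 d, with 2 tags.

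The ID genes encode proteins without a DNA-binding domain that hold bHLH factors inactive. ID1 had 34, 14 and 6 tags, or 5.75, 2.50 and 1.03 TPM, and was 5.60-fold lower at +3 d than at −35 d (95% interval 2.32 to 16.3, Audic-Claverie FDR 2.23e-05), which was not called with TMM scaling (a log2 ratio of −1.99 in place of −2.49). ID2 and ID3 were called in no comparison. ID2 had 32.5, 34.5 and 30.3 TPM, and all its intervals included a log2 ratio of 0 with clean-tag scaling (0.40 at +3 d against −35 d with TMM scaling). ID3 had 147, 117 and 139 TPM, with log2 ratios of −0.33 and 0.24.

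The C/EBP genes were led by CEBPD, which inflammation and involution of the gland induce. CEBPD had 1979, 1069 and 1328 tags, or 335, 191 and 227 TPM. The log2 ratio of −0.81 in stage I (95% interval −0.92 to −0.70) did not reach 2-fold, and that of +3 d against −35 d, −0.56, became −0.06 with TMM scaling. CEBPA, an adipocyte and liver factor, had 4 tags at −35 d and was listed at 0 in the other libraries. CEBPG had 34, 26 and 24 tags and was not called.

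GATA3, which sets luminal cell fate, had 16.6 TPM at −35 d, 23.1 TPM at −7 d and 11.6 TPM at +3 d. Its order was that of ELF5 and MYC, highest at −7 d and lowest at +3 d. The stage II log2 ratio of −0.99 (95% interval −1.43 to −0.55) fell just under the 2-fold threshold and was not called.

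The NFI factors, which bind promoters of milk protein genes among others, summed to 105 TPM at −35 d, 88.1 TPM at −7 d and 72.5 TPM at +3 d. Their summed log2 ratio of −0.28 in stage II turned to 0.03 with TMM scaling. NFIX had 24, 55 and 36 tags and rose 2.42-fold in stage I (95% interval 1.48 to 4.09, Audic-Claverie FDR 0.000794). NFIB had 60.2, 52.0 and 39.9 TPM, and NFIC had 34.0, 19.0 and 18.1 TPM. Neither reached 2-fold, although the stage I log2 ratio of NFIC, −0.84, was beyond counting error (−1.20 to −0.50). NFIA had 38, 41 and 49 tags and was not called.

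Of the 2 SOX genes, SOX4, a factor of progenitor and epithelial cells, had 38.2, 20.0 and 18.8 TPM. It was 2.03-fold lower at +3 d than at −35 d (95% interval 1.61 to 2.57), a call that was lost with TMM scaling (−0.52 on the log2 scale). SOX18, an endothelial factor, was lowest at −7 d with 35.7, 21.3 and 31.0 TPM and was not called.

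Among the 8 FOX genes, FOXP1 and FOXA3 were called. FOXP1, a repressor expressed in many epithelia and in lymphocytes, had 17.8, 7.33 and 8.04 TPM. It fell 2.42-fold in stage I (95% interval 1.67 to 3.57) and was 2.21-fold below −35 d at +3 d (1.55 to 3.18), the latter not called with TMM scaling (−0.64 on the log2 scale). FOXA3, best known from liver, had 16, 5 and 0 tags. With the 3 tags that a count of 0 allows in the +3 d library, its level there was 5.27-fold lower than at −35 d. The counting error of the 16 tags did not enter this value. The difference was called under both scalings but not with DESeq2 size factors. FOXO4, a target of insulin signalling, had 10.7, 6.79 and 11.6 TPM, and its stage II log2 ratio of 0.78 was called only with TMM scaling (1.08). FOXN3 had 102, 81 and 54 tags, FOXS1 had 74, 51 and 70, and FOXF1 had 9, 3 and 5. FOXJ3 and FOXK2 had at most 4 tags in any library. None of these was called.

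No HOX gene was called of the 12 listed, which carry positional identity in epithelium and stroma. Their summed level was 101 TPM at −35 d, 86.7 TPM at −7 d and 116 TPM at +3 d, and 7 of the 12 were lowest at −7 d. The summed log2 ratio was 0.42 in stage II (95% interval 0.25 to 0.59), or 0.73 with TMM scaling. HOXA9 held most of these tags, with 63.9, 64.4 and 78.5 TPM. HOXA5 had 10.1, 6.79 and 11.8 TPM and was called in stage II only with TMM scaling (1.10). HOXB3 had 25, 11 and 29 tags and HOXA10 had 33, 14 and 24. HOXB7, HOXC4, HOXB4 and HOXD10 lay between 6 and 28 tags, while HOXC11 had 12, 2 and 2. HOXA3 had 8 tags at −35 d and was listed at 0 later, which was not called. Read as 3 tags, the 0 at −7 d gives a 2.52-fold lower level, without the counting error of the 8 tags. The 95% intervals of its levels overlapped, with 0.58 to 2.67 TPM at −35 d and 0 to 0.66 TPM at −7 d. HOXD4 had at most 6 tags and HOXA2 at most 2.

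The TBX genes gave few tags. TBX19 had 6, 11 and 10, and TBX15 had 2 at −35 d only. Altogether 16 of the 89 genes had at most 10 tags in every library, and none of these was called in any comparison, where a 2-fold difference is hard to tell from counting error at this depth.

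**Figure D4:**
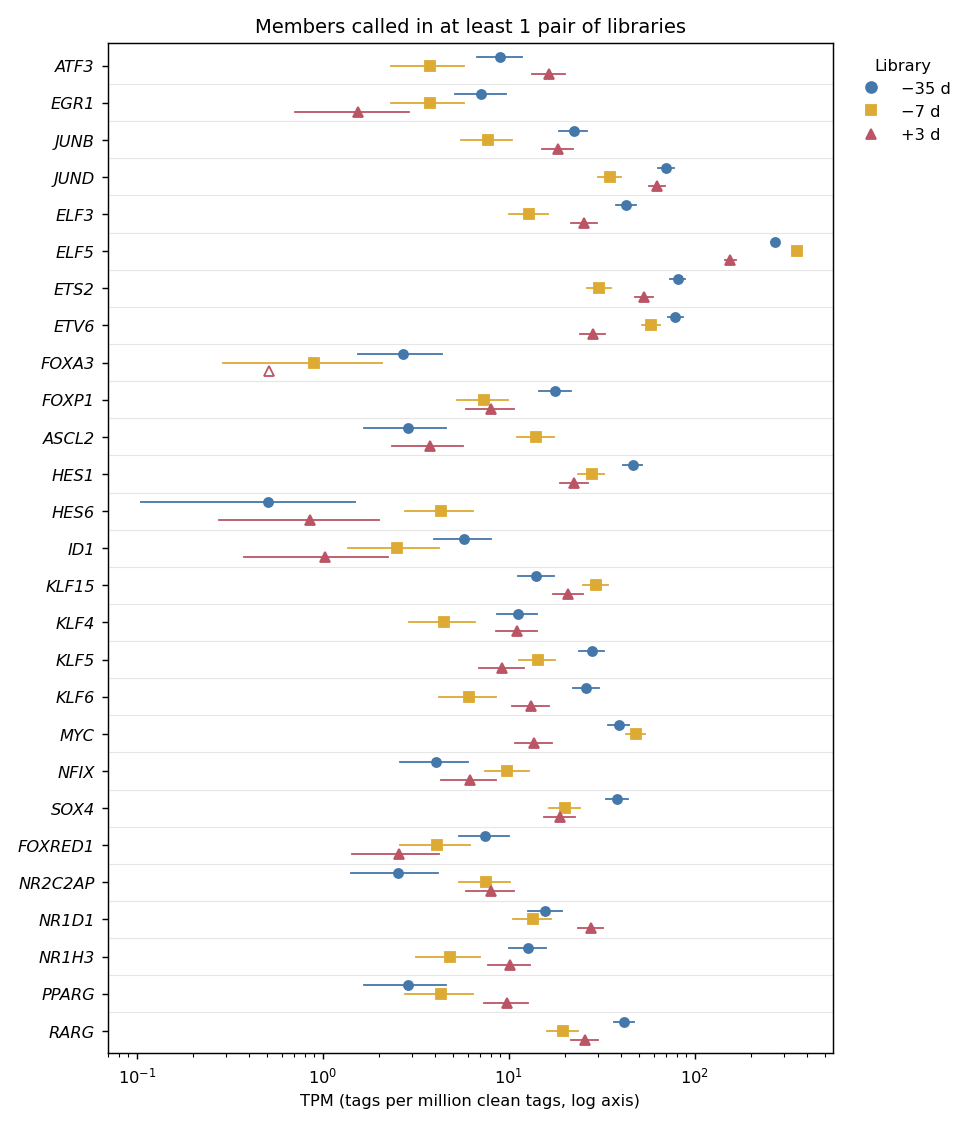
Levels in each library, in TPM on a log axis, of the 27 genes called in at least 1 pair of libraries. Bars are 95% exact Poisson intervals for counting error. The open marker of FOXA3 stands at the level that a count of 0 allows at +3 d (3 tags). ASCL2 and HES6 are highest at −7 d, JUNB, KLF4 and KLF6 are lowest at −7 d, and MYC is lowest at +3 d.

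The 9 genes matched by symbol only encode proteins that are not transcription factors of the named families. NR2C2AP, a protein that binds the orphan receptor TR4, had 15, 42 and 47 tags, or 2.54, 7.51 and 8.04 TPM. It was 2.96-fold higher at −7 d (95% interval 1.61 to 5.75) and 3.17-fold higher at +3 d (1.74 to 6.10) than at −35 d, and both were called under both scalings. CEBPZ, a nucleolar protein of ribosome production, had 93.3, 139 and 73.4 TPM. Its stage II log2 ratio of −0.92 (95% interval −1.09 to −0.75) did not reach 2-fold. FOXRED1, an assembly factor of respiratory complex I, had 44, 23 and 15 tags and was called 2.90-fold lower at +3 d than at −35 d (1.58 to 5.61), though not with TMM scaling (−1.04 on the log2 scale).

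The remaining genes of this kind were called in no comparison. GATAD1 and GATAD2A, chromatin proteins, had 49, 19 and 22 tags and 34, 20 and 24 tags. HESX1, a homeobox repressor of the pituitary, had 41, 30 and 17 tags. The thromboxane receptor gene TBXA2R had 20, 13 and 25 tags, the thromboxane synthase gene TBXAS1 had 28, 39 and 31, and the corepressor gene RUNX1T1 had at most 2.

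**Figure D5:**
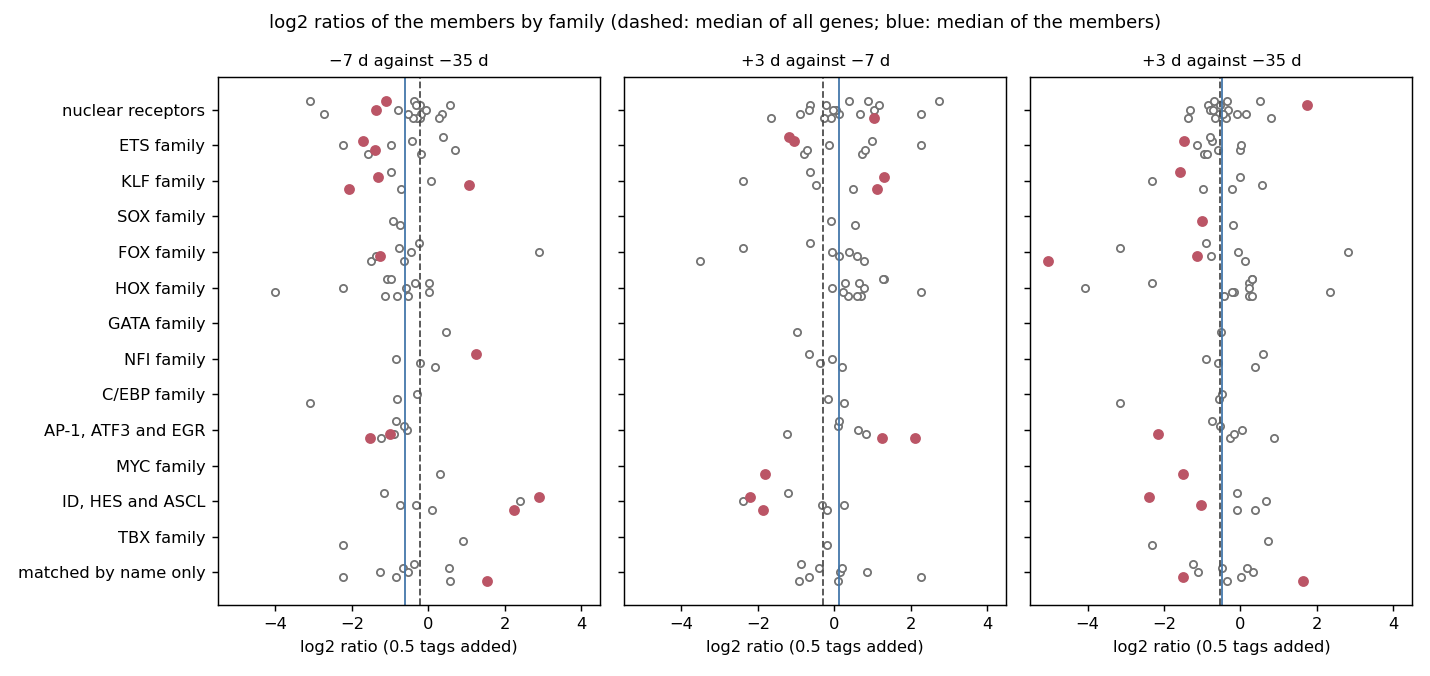
Log2 ratios of the 89 genes by family in the 3 comparisons (horizontal axis, with 0.5 tags added to each count and scaling to clean tags; filled points were called); the dashed line is the median of all genes and the blue line that of the members. The blue line lies left of the dashed line in stage I (−0.61 and −0.21) and right of it in stage II (0.11 and −0.30).

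Genes that work with or downstream of these factors were read from other lists. The shares of all genes called higher and lower, to be read beside each count, were 2.62% and 6.45% in stage I, 3.12% and 10.4% in stage II, and 2.33% and 16.3% at +3 d against −35 d. Of the PPAR, LXR and RXR targets, 13 of 16 were listed, with 6 called higher and 2 lower in stage I, 5 higher and 2 lower in stage II, and 3 higher and none lower at +3 d against −35 d. The highest log2 ratio among them was that of FABP3, a fatty acid carrier, which had 1.52, 46.3 and 157 TPM and log2 ratios of 4.93 and 1.76 in stages I and II. SCD, a desaturase, rose by 3.41 in stage I, and LPL, which frees fatty acids from lipoproteins, rose by 2.17 in stage II. PLIN2, a lipid droplet protein, rose by 2.11 and then fell by 1.32 on the log2 scale, and FASN rose by 2.09 and then fell by 2.10. The 2 called lower in stage I were ANGPTL4 and CD36, with −1.68 and −1.02. Both were called higher in stage II, with 1.52 and 1.82, and the stage I call of CD36 was lost with TMM scaling. With TMM scaling 8 of the list were called higher at +3 d against −35 d. Beside them, the receptor genes NR1H3 and PPARG had stage I log2 ratios of −1.39 and 0.58, of which the first was called.

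Steroid response genes were listed for 10 of 18, with 1 called higher in stage I, 1 lower in stage II and 1 higher at +3 d against −35 d. TFF3, a trefoil peptide, had log2 ratios of 2.02 and −2.51 in the 2 stages, and CYP19A1, the aromatase, had 1.42 at +3 d against −35 d. Receptor coactivators and corepressors were listed for 8 of 18. The only call among them was the cochaperone FKBP4, which fell by 1.16 in stage II and by 1.51 at +3 d against −35 d on the log2 scale. Prolactin, growth hormone and insulin signalling genes were listed for 9 of 19. Among them AKT1 fell by 1.11 in stage I and by 1.17 at +3 d against −35 d, IGFBP5 rose by 1.48 in stage II, and CISH fell by 1.39 at +3 d against −35 d. The calls of AKT1 and CISH and the stage II call of FKBP4 were lost with TMM scaling.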

How the data were processed

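Clean tags of 21 bases were made by the authors, who removed adaptor tags, tags with unknown bases or wrong length and single-copy tags. Their matching to CATG sites of bovine transcripts (UMD 3.1) allowed 1 mismatch. Deposited counts are the unambiguous clean tags that the authors summed per gene, and the deposited TPM values are these counts per 1000000 clean tags. TPM computed from the counts differed from them by at most 0.0050. A summary table whose columns do not name the samples was not used.

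The 3 gene tables were joined by accession, and an unlisted gene was given 0 tags. Members matched the symbol pattern. RefSeq (ARS-UCD2.0) held the accession of 76 of the 89 under the same symbol, and 13 were not matched. Members and gene lists were chosen with earlier results of these data known.

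P-values of the Audic-Claverie test doubled the smaller of its tails (2 times) with Benjamini-Hochberg adjustment over all genes with a tag in either library. The thresholds of a call were 0.001 for the FDR and 1 for the size of the log2 ratio. A level of 0 TPM was set to 0.01. Medians used 0.5 tags added to each count. The scripts were tested on simulated data. Alternatives were TMM scaling (edgeR), DESeq2 size factors, totals without genes over 1% of a library, Fisher's exact test, the exact test of edgeR with a spread that was assumed (0.2 or 0.4 as biological coefficient of variation), a threshold of 3-fold, a mean of at least 5 TPM, and 1 tag added.

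Named genes were all called members, the 3 members with the most tags per library, members of a list of mammary regulators, members matched by name only, and at most 4 called genes of each other list. The other members were named to account for all 89, with their values known. Further genes of the lists are given beside these named genes, also chosen with their values known. Antisense tags, sequences of the genes and enrichment were not analysed here. The R packages edgeR 4.0.16 and DESeq2 1.42.0 were run in R 4.3.3. All else was computed in Python 3.11.15, using pandas 2.3.3, scipy 1.17.1, matplotlib 3.10.9 and numpy 2.4.6.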

Additional observations from a re-analysis of the deposited data

How the results depend on the processing

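No paired analysis was possible because each time point had 1 library, and for the same reason no replicate could be left out. For stage II, TMM scaling, DESeq2 size factors and totals without genes over 1% of a library each gave 13 members called higher and 2 lower, in place of 5 and 5. At +3 d against −35 d these settings gave 6, 6 and 4 higher in place of 2, and 3, 1 and 6 lower in place of 10. Stage I counts stayed within 1.5 times under these 3 settings. A 3-fold threshold, which leaves fewer genes by construction, gave 2 higher and 2 lower in stage I, 1 and 3 in stage II and 4 lower at +3 d against −35 d. A mean of at least 5 TPM left 6 lower in that last comparison, from 52 members tested. Fisher's exact test changed no count of members. The exact test of edgeR called, with a coefficient of variation set to 0.2 or 0.4, 0 members in every comparison and direction. Of all genes it called at most 1.13% with 0.2 and at most 0.14% with 0.4. At an unadjusted p under 0.05 it gave 23, 14 and 20 members with 0.2 and 4 each with 0.4, compared with 47, 40 and 40 by the Audic-Claverie test. The share of all genes at that unadjusted p was not computed.

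The median log2 ratio of the members ran from −0.61 to −0.40 in stage I and from 0.11 to 0.43 in stage II over the settings. At +3 d against −35 d it was −0.47, and it was 0.03 with TMM scaling and 0.04 with DESeq2 size factors. Of the ratios of named genes, 33 lost and 17 gained a call with TMM scaling. At +3 d against −35 d the marker FBLN1 went from −0.19 to 0.31 (TMM), 0.32 (DESeq2) and 0.17 (totals without genes over 1%). Members called in neither setting changed sign there too with TMM scaling, among them JUNB (−0.29 to 0.21), JUND (−0.16 to 0.33), CEBPZ (−0.35 to 0.15) and ID3 (−0.08 to 0.42). Depth limited the 16 genes with at most 10 tags everywhere, none of which was called.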

Other observations

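Marker lists of cell types not fully described above moved as follows. Their counts of calls, here and in the next paragraph, are to be read beside the shares of all genes. Called higher and lower were 2.62% and 6.45% in stage I and 3.12% and 10.4% in stage II. At +3 d against −35 d the shares were 2.33% and 16.3%, and those with TMM scaling stand with each comparison above. Myoepithelial and smooth muscle markers (10 of 11 listed) summed to 930 TPM at −35 d, 564 TPM at −7 d and 1182 TPM at +3 d, with 3 called lower in stage I and 5 higher in stage II. OXTR, the oxytocin receptor of myoepithelial cells, had 2, 9 and 37 tags, DES and CNN1 had stage II log2 ratios of 2.19 and 2.04, and the basal keratin KRT5 had −1.96 in stage I. T and NK cell markers (12 of 14 listed) summed to 263, 168 and 156 TPM, with 2 called lower in stage I and 3 at +3 d against −35 d (1 with TMM scaling). In stage II, 1 of them was called higher and 1 lower (1 and 0 with TMM scaling). LCK and CD3G were called lower in stage I, with log2 ratios of −1.55 and −1.52, and CD3D and CD27 at +3 d against −35 d, with −2.21 and −1.57, of which that of CD3D was not called with TMM scaling. B and plasma cell markers (4 of 10 listed) summed to 301, 165 and 175 TPM with no call. Erythrocyte markers (4 of 8 listed) summed to at most 4.11 TPM with no call, and HBB was at 0 at −7 d and +3 d.

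Macrophage markers differed among themselves, with 4 called lower in stage I, 3 higher in stage II (5 with TMM scaling), and 2 higher and 1 lower at +3 d against −35 d. CD163, a scavenger receptor of resident macrophages, had 46, 11 and 116 tags, with log2 ratios of −1.98 in stage I and 3.33 in stage II. CTSS, a lysosomal protease, had −1.52 in stage I and was 0.28 lower on the log2 scale in stage II, which was not called, while CD14 had 2.20 in stage II and CD68 had −2.73 in stage I. Of the 9 listed endothelial markers, 0 were called in stage I and 2 were called higher in stage II. These were ERG and CLDN5, with log2 ratios of 1.39 and 1.15. At +3 d against −35 d, 1 was called higher and 1 lower, ERG with 1.56 and KDR with −1.14. Of the 9 listed fibroblast and matrix markers, 2 were called lower in stage I (1 with TMM scaling) and 1 higher in stage II (4 with TMM scaling). In stage I, VIM had −1.41, while COL1A1 and LUM had −0.20 and 0.02 and were not called. COL1A2 had 1.32 in stage II. The luminal markers EPCAM and SPINT2 had log2 ratios of −1.24 and −1.21 at +3 d against −35 d. Of the 8 listed adipocyte markers, 2 were called lower in stage I, PLIN1 with −1.08 and CFD with −1.15. The others were not called there. RETN, FABP4 and ADIPOQ had −2.38, −0.74 and −0.07, and CIDEC, PNPLA2 and LEP had 0.07, 0.08 and 1.27. These calls of KDR, EPCAM, SPINT2, PLIN1 and CFD were lost with TMM scaling. MCM5, BUB1, CCNB1 and CCNB2, markers of dividing cells, had 26, 23, 29 and 14 tags at −35 d and at most 4 at +3 d.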
